A study of Mus musculus with 13 samples.

Results

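The 28 genes of cholesterol synthesis and its transcriptional control were examined in brain myeloid cells of amyloid-bearing mice with and without Trem2. They were taken by gene symbol from the 52636 genes in the deposited tables and comprise 20 enzymes, 7 genes of the sterol regulatory element binding proteins (SREBPs) and their control, and the sterol carrier Stard4. RNA-Seq had been performed on single-mouse pools of CD11b+CD45+Ccr2-Ly6g- cells sorted from the cortex and hippocampus at 14 to 15 months of age, and each mouse was 1 replicate. The PS2APP;Trem2wt group (labelled PS2APP) held 7 mice, 5 females and 2 males. The PS2APP;Trem2ko group (labelled PS2APP;Trem2KO) held 6 mice, 5 females and 1 male. Every mouse in both groups was bred from homozygous carriers of the PS2APP transgene, which encodes mutant human presenilin 2 and amyloid precursor protein, so no plaque-free control enters the comparison. The knock-out group was homozygous for the null allele Trem2tm1(KOMP)Vlcg, which was made on C57BL/6N and crossed into PS2APP mice on C57BL/6J, and the deletion is present in every cell of the animal. The gate keeps a small share of perivascular macrophages beside microglia.

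Cells build cholesterol from acetyl-CoA. The mevalonate steps give farnesyl and geranylgeranyl diphosphate, squalene synthesis and epoxidation commit the carbon to sterols, and a chain of endoplasmic reticulum enzymes then turns lanosterol into cholesterol. When membrane sterol is low, Scap carries SREBP precursors to the Golgi, where the proteases encoded by Mbtps1 and Mbtps2 release the transcription factor, and when sterol is high the Insig proteins hold the complex back. The protein made from Srebf2 acts mainly on cholesterol genes and that from Srebf1 mainly on fatty acid genes. In the adult brain cholesterol is made locally, largely by glia, because plasma lipoproteins hardly cross the blood-brain barrier.

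Total counts on genes ranged from 26120961 to 120569609 per mouse, and all 28 genes passed the expression filter that kept 17086 genes. Trem2 itself was listed between 818 and 1244 nRPKM in PS2APP;Trem2wt mice and between 0.393 and 2.29 nRPKM in PS2APP;Trem2ko mice. nRPKM is the authors' RPKM adjusted by a size factor, so it is a level per transcript length that can be set side by side between genes. The microglial markers Tmem119 and P2ry12 were measured at medians of 1421 and 2012 nRPKM in PS2APP;Trem2wt mice and 1453 and 1978 nRPKM in PS2APP;Trem2ko mice, so the labelled cell type was present in both groups. One mouse, PS2APP;Trem2wt replicate 3, a female, stood apart. It had the highest level of the 7 PS2APP;Trem2wt mice for 21 of the 28 genes. Log2 fold changes are given with and without it for the called genes except Hsd17b7 and for several other genes. For Hsd17b7 the range over all left-out mice is given.

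Some cholesterol synthesis transcripts were lower in PS2APP;Trem2ko microglia, most of them at steps after lanosterol. 8 of the 28 genes were lower by edgeR's quasi-likelihood test (adjusted p of 0.05 or less) and 0 were higher, whereas 1.53% of all 17086 genes tested were called lower, 0.503% higher and 2.04% in either direction. The 8 genes were Hmgcs1, Sqle, Cyp51, Msmo1, Hsd17b7, Sc5d, Srebf2 and Insig1. Of the 20 enzymes 6 were called and 14 were not. The 6 were 1 of 8 at the mevalonate steps, 1 of 3 at the squalene steps and 4 of 9 after lanosterol. At an unadjusted p of 0.05 or less, 14 of the 28 were lower and 0 were higher, against 7.56% of all genes lower. The log2 fold change was negative for 24 of the 28 genes, against 49.3% of all genes tested, and its median was -0.24 over the 28 genes and 0.0039 over all genes. In 8 genes the depth-scaled counts (CPM after TMM) of the genotypes did not overlap, in each case with all 6 PS2APP;Trem2ko mice below all 7 PS2APP;Trem2wt mice, against 1.22% of all genes tested, and the reverse held for 0 of the 28 and for 0.421% of all genes. These were the called genes without Hsd17b7 and with Fdps. The 28 genes were chosen with earlier results of these data known, so these shares describe the genes and add no independent evidence. Only Sqle was also lower by at least 2-fold in edgeR, where 0.691% of all genes passed both cutoffs. Insig1 lay just short of that cutoff, at a log2 fold change of -0.995. It passed both cutoffs in voom+limma (-1.13, adjusted p = 0.00249) and in edgeR on females alone (-1.02, adjusted p = 0.0248). Without PS2APP;Trem2wt replicate 3, 7 genes remained lower, Hsd17b7 being the one lost, and 8 were still without overlap. Because whole cell pools were sequenced, fewer cells with high expression and less RNA per cell cannot be told apart.

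**Figure D1:**
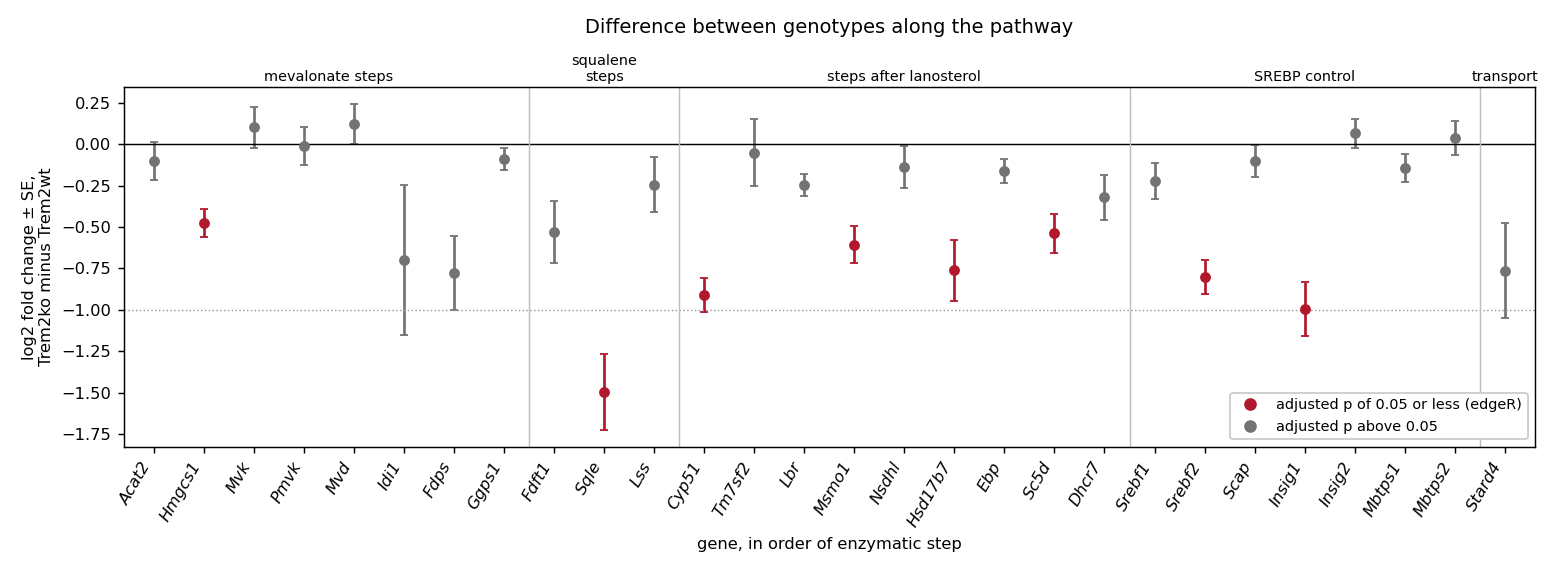
Log2 fold change of each of the 28 genes, PS2APP;Trem2ko minus PS2APP;Trem2wt, from edgeR, with bars of 1 SE, in order of enzymatic step; n = 7 and 6 mice. Red points have an adjusted p of 0.05 or less, and the dotted line marks a 2-fold decrease. The 8 red points all lie below 0, the lowest being Sqle at -1.497, and the 4 points above 0 do not exceed 0.12.

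Upstream stretches of 5 of the genes that fell are shown so that the letters of known motifs for SREBPs and their partner factors can be seen. SREBPs bind sterol regulatory elements, and they act together with NF-Y, which binds CCAAT, and with Sp1, which binds GGGCGG. RefSeq windows on GRCm38.p6, from 250 bases before to 50 bases after the start site, matched 24 of the 28 genes and 7 of the 8 called genes. Fdps, Fdft1, Sqle and Stard4 were not matched. The stretches before the first annotated exon are printed in lower case, 5′ to 3′ on the strand of the gene. Capitals mark TCACNNCA (in Hmgcs1 with the last letter of the longer TCACNCCAC), CCAAT and the E-box CACGTG on either strand, so that ATTGG is CCAAT on the other strand. Hmgcs1 lies at chr13:119690151-119690350 (plus strand), Cyp51 at chr5:4104747-4104946 (minus strand), Hsd17b7 at chr1:169969242-169969408 (minus strand), Srebf2 at chr15:82147019-82147180 (plus strand) and Insig1 at chr5:28071163-28071362 (plus strand).
Hmgcs1: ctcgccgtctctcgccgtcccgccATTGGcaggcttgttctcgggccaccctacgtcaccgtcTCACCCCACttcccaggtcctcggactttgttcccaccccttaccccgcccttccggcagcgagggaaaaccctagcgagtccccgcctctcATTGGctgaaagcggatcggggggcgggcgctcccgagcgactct
Cyp51: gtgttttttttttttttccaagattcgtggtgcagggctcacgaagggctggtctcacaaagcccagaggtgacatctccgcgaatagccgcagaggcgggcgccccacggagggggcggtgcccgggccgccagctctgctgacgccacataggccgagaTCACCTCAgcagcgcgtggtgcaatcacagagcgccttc
Hsd17b7: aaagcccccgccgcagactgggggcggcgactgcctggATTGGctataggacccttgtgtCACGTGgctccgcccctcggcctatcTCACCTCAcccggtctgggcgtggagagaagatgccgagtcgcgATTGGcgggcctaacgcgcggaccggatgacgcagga
Srebf2: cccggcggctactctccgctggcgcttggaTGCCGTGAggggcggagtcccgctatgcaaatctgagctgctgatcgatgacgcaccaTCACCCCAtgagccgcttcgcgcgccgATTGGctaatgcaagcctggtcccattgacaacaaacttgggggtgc
Insig1: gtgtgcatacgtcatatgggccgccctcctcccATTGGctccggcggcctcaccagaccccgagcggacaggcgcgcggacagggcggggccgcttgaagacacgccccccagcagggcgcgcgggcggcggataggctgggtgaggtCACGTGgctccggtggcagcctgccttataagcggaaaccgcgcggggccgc

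The strict element TCACNCCAC was searched on both strands and occurred in 1 of the 24 matched promoters. This was that of Hmgcs1, from -137 to -129 relative to the start site. Of all 32851 windows of the same length, 1.24% held the strict element. Some genes have several windows, and a gene was counted once if any of its windows matched. Counted so, 1.44% of all 27025 genes with a window held it. A looser form, TCACNNCA, which contains every strict match, was added after that search. It occurred in 10 of the 24 promoters, against 15.7% of all genes and 13.5% of genes tested here. It was present in 6 of the 7 matched genes that fell, the exception being Insig1, and in 4 of the 17 matched genes that were not called. Srebf2 held it at 2 places, one of them on the other strand, and in Cyp51 it lay from -88 to -81. CCAAT was found in 20 of the 24 promoters and all 7 of the matched genes that fell. That compares with 41.1% of all genes and 42.6% of genes tested here. In Cyp51 the only CCAAT lies from -29 to -25, within the window but outside the printed stretch. GGGCGG was found in 21 of the 24 and in 38.2% of all genes, although it was present in 65.9% of genes tested here. CACGTG was found in 5 of the 24, among them Hsd17b7, Sc5d and Insig1, and in 8.09% of all genes and 11.5% of genes tested here. These matches describe letters, not binding, and no test was made of them.

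The mevalonate steps, from acetyl-CoA to the isoprenoid diphosphates, changed at 1 of 8 genes, and the median log2 fold change of the 8 was -0.10. Hmgcs1, which joins acetoacetyl-CoA and acetyl-CoA into HMG-CoA, ranged from 8.29 to 11.9 nRPKM in PS2APP;Trem2wt mice (median 9.11) and from 6.15 to 7.42 nRPKM in PS2APP;Trem2ko mice (median 6.69). The genotypes were separate, and PS2APP;Trem2ko mice were close to each other. Its log2 fold change was -0.48 ± 0.08 (SE, edgeR adjusted p = 0.00690), which is 0.718 of the PS2APP;Trem2wt level, and it was -0.41 (adjusted p = 0.00520) without PS2APP;Trem2wt replicate 3. Of the exon bases of Hmgcs1 (chromosome 13, 119690379 to 119708260), 12.1% lie over Gm48342 on the other strand, and whether the counting used strand is not stated.

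Fdps, the farnesyl diphosphate synthase whose product feeds both sterols and prenylation, was low in all mice. It ranged from 0.468 to 0.780 nRPKM in PS2APP;Trem2wt mice (median 0.591) and from 0.243 to 0.448 nRPKM in PS2APP;Trem2ko mice (median 0.364). No PS2APP;Trem2ko mouse reached the lowest PS2APP;Trem2wt mouse, yet the log2 fold change of -0.78 ± 0.22 (SE) did not pass in edgeR, at an adjusted p of 0.0966. The adjusted p was 0.0379 in voom+limma and 0.0184 in DESeq2, so the call for Fdps depended on the test. Its counts were 26 to 137 per mouse, and 26.2% of its 50-base words also occur in another gene, 23.4% in the overlapping gene Gm43738, which leaves part of its count uncertain.

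The other mevalonate genes did not pass the test. Mvk, mevalonate kinase, and Mvd, which decarboxylates mevalonate diphosphate, had 2 of the 3 most positive log2 fold changes of the 28 genes. Mvk was measured at 1.92, 2.16 and 3.0002 nRPKM (lowest, median, highest) in PS2APP;Trem2wt mice and at 2.27, 2.52 and 2.95 nRPKM in PS2APP;Trem2ko mice, a log2 fold change of 0.10 ± 0.12 (SE, edgeR adjusted p = 0.756). For Mvd the values were 2.51, 3.28 and 3.90 nRPKM against 2.94, 3.58 and 4.19 nRPKM, a log2 fold change of 0.12 ± 0.12 (SE, edgeR adjusted p = 0.699). The genotypes overlapped over most of the range in both. Acat2, the thiolase of the first condensation, Pmvk, phosphomevalonate kinase, and Ggps1, which makes geranylgeranyl diphosphate, had log2 fold changes of -0.10, -0.01 and -0.09, and that of Pmvk turned positive in females alone (0.05) and without PS2APP;Trem2wt replicates 1, 2 or 3 or PS2APP;Trem2ko replicates 3, 4 or 5 (up to 0.05). Of the 50-base words of Acat2, 39.1% also occur in Acat3, so that reads of the pair cannot be fully separated. Idi1, the isopentenyl diphosphate isomerase, had 2 to 44 counts per mouse and a log2 fold change of -0.70 with an SE of 0.45. A difference was not detectable with so few counts. Of its 50-base words, 25.3% also occur in another gene, 17.7% in Gm13502, which leaves part of its count uncertain.

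**Figure D2:**
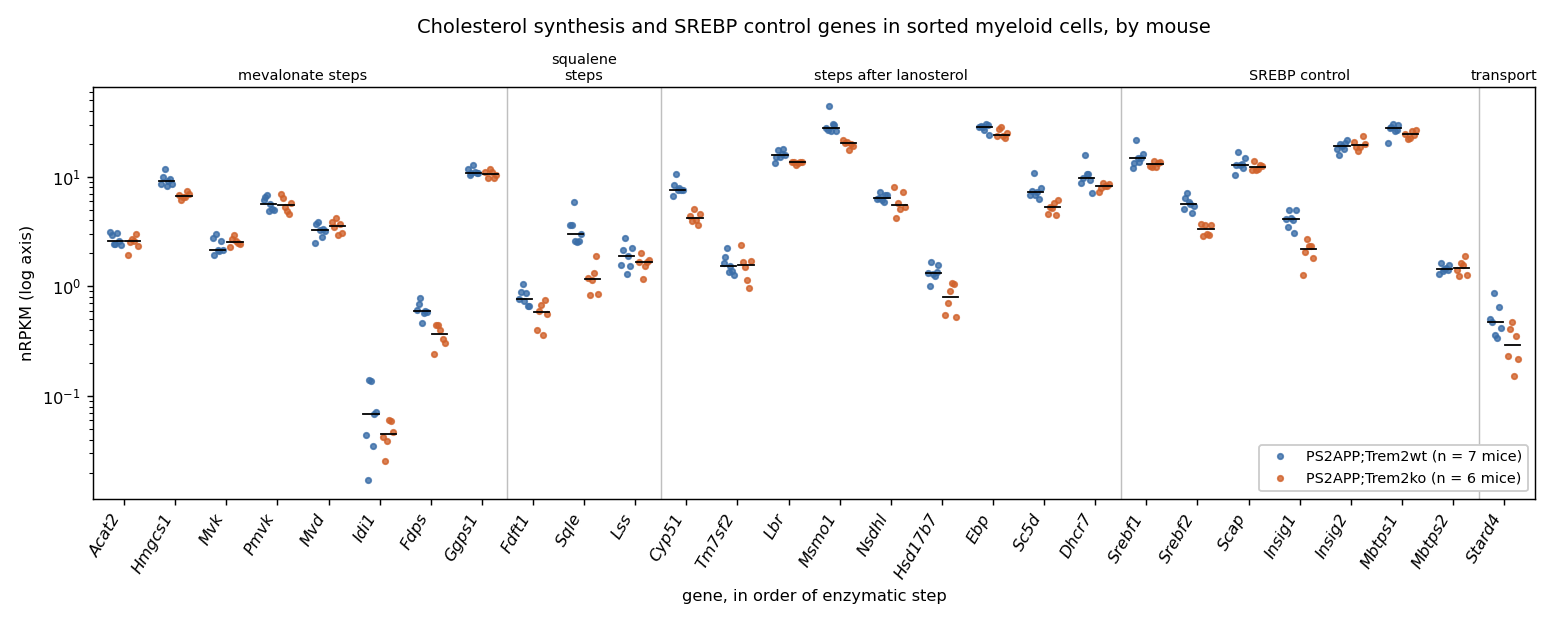
nRPKM (log axis) of the 28 genes in each mouse, in order of enzymatic step, with blue points for the 7 PS2APP;Trem2wt mice, orange points for the 6 PS2APP;Trem2ko mice and a line at each median. Medians ran from below 0.1 nRPKM for Idi1 to 28.6 nRPKM for Ebp in PS2APP;Trem2wt mice, and the orange points lie below the blue points without overlap for Sqle, Cyp51, Srebf2 and Insig1 among others.

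All 3 genes that make squalene and close the ring had negative log2 fold changes, with a median of -0.53, and 1 of them was called. Sqle, squalene monooxygenase, catalyses the first oxygen-requiring step and is a known point of flux control. It had the largest log2 fold change of the 28 genes. It ranged from 2.52 to 5.85 nRPKM in PS2APP;Trem2wt mice (median 2.99) and from 0.837 to 1.89 nRPKM in PS2APP;Trem2ko mice (median 1.16). The groups were separate, the highest PS2APP;Trem2ko value being that of the male. Its log2 fold change was -1.497 ± 0.23 (SE, edgeR adjusted p = 0.00212), which is 0.354 of the PS2APP;Trem2wt level. Without PS2APP;Trem2wt replicate 3, the mouse at 5.85 nRPKM, it was -1.32 (adjusted p = 0.00190). Sqle spans chromosome 15 from 59315077 to 59331192, and 0.0358% of its 50-base words occur in another gene.

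Fdft1, squalene synthase, had 0.658 to 1.04 nRPKM in PS2APP;Trem2wt mice and 0.362 to 0.746 nRPKM in PS2APP;Trem2ko mice. 4 of the 6 PS2APP;Trem2ko mice lay below every PS2APP;Trem2wt mouse, with a log2 fold change of -0.53 ± 0.19 (SE, edgeR adjusted p = 0.186), and 26.5% of its 50-base words also occur in another gene, 17.2% in Ctsb, which overlaps it on the other strand. Lss, which closes squalene epoxide to lanosterol, had a log2 fold change of -0.24 (SE 0.17), or -0.14 without PS2APP;Trem2wt replicate 3, and overlapped between the genotypes.

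The steps from lanosterol to cholesterol held 4 of the 8 called genes. All 9 genes of these steps had negative log2 fold changes, with a median of -0.32 and a range from -0.91 to -0.05. Cyp51, the lanosterol demethylase that opens this stretch, ranged from 6.74 to 10.5 nRPKM in PS2APP;Trem2wt mice (median 7.65) and from 3.67 to 5.12 nRPKM in PS2APP;Trem2ko mice (median 4.23). The gap between the groups was wider than the whole PS2APP;Trem2ko range. The log2 fold change was -0.91 ± 0.10 (SE, edgeR adjusted p = 0.000139), the smallest adjusted p of the 28 genes, and -0.84 without PS2APP;Trem2wt replicate 3. Cyp51 lies on chromosome 5 from 4081145 to 4104746.

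Msmo1, which oxidises the methyl groups at carbon C4, was among the most abundant of the 28 transcripts. It ranged from 26.2 to 44.2 nRPKM in PS2APP;Trem2wt mice (median 27.8) and from 17.6 to 21.7 nRPKM in PS2APP;Trem2ko mice (median 20.2). The groups were separate, and the value of 44.2 nRPKM belonged to PS2APP;Trem2wt replicate 3. Its log2 fold change was -0.61 ± 0.11 (SE, edgeR adjusted p = 0.00891) with that mouse and -0.49 (SE 0.07, adjusted p = 0.000914) without it.

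Hsd17b7, the ketosterol reductase that completes the same demethylation, was measured at 1.02 to 1.68 nRPKM in PS2APP;Trem2wt mice (median 1.33) and 0.530 to 1.06 nRPKM in PS2APP;Trem2ko mice (median 0.804). 4 of the 6 PS2APP;Trem2ko mice lay below every PS2APP;Trem2wt mouse, and the lowest PS2APP;Trem2wt value belonged to a male. The log2 fold change of -0.76 ± 0.18 (SE) passed in edgeR at an adjusted p of 0.0424. This call was kept when PS2APP;Trem2wt replicate 2, PS2APP;Trem2ko replicate 4 or PS2APP;Trem2ko replicate 5 was left out and was lost when any one of the other 10 mice was, with an adjusted p of up to 0.0931, while the log2 fold change stayed between -0.86 and -0.66.

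Sc5d, a desaturase that acts late in the pathway, ranged from 6.21 to 10.8 nRPKM in PS2APP;Trem2wt mice (median 7.22) and from 4.51 to 6.12 nRPKM in PS2APP;Trem2ko mice (median 5.28). The highest PS2APP;Trem2ko mouse lay just below the lowest PS2APP;Trem2wt mouse. Its log2 fold change was -0.54 ± 0.12 (SE, edgeR adjusted p = 0.0292), and -0.44 (adjusted p = 0.0235) without PS2APP;Trem2wt replicate 3. The call was lost without PS2APP;Trem2ko replicate 1, 3 or 5, with adjusted p-values of 0.0737, 0.0563 and 0.0586, and in females alone (adjusted p = 0.125).

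The remaining genes after lanosterol did not pass the test. Lbr, the lamin B receptor, which is also a sterol reductase, ranged from 13.4 to 17.9 nRPKM against 12.9 to 13.8 nRPKM, a log2 fold change of -0.25 ± 0.07 (SE, edgeR adjusted p = 0.0778). Without PS2APP;Trem2wt replicate 1 the adjusted p for Lbr was 0.0210, and with all mice it was 0.0115 in DESeq2 and 0.0718 in voom+limma. Tm7sf2, the other reductase of that step, had a log2 fold change of -0.05 with an SE of 0.20, and its sign turned in females alone (0.04), with counts thinned to the smallest library (0.07) and without PS2APP;Trem2wt replicate 3, PS2APP;Trem2ko replicate 4 or PS2APP;Trem2ko replicate 5 (0.05, 0.02 and 0.06). Nsdhl, the decarboxylase at C4, Ebp, the sterol isomerase, and Dhcr7, a terminal reductase, had log2 fold changes of -0.14, -0.16 and -0.32 (edgeR adjusted p = 0.670, 0.293 and 0.279). For Dhcr7 the value was -0.19 without PS2APP;Trem2wt replicate 3, which was measured at 15.6 nRPKM where the other PS2APP;Trem2wt mice did not exceed 10.5 nRPKM.

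**Figure D3:**
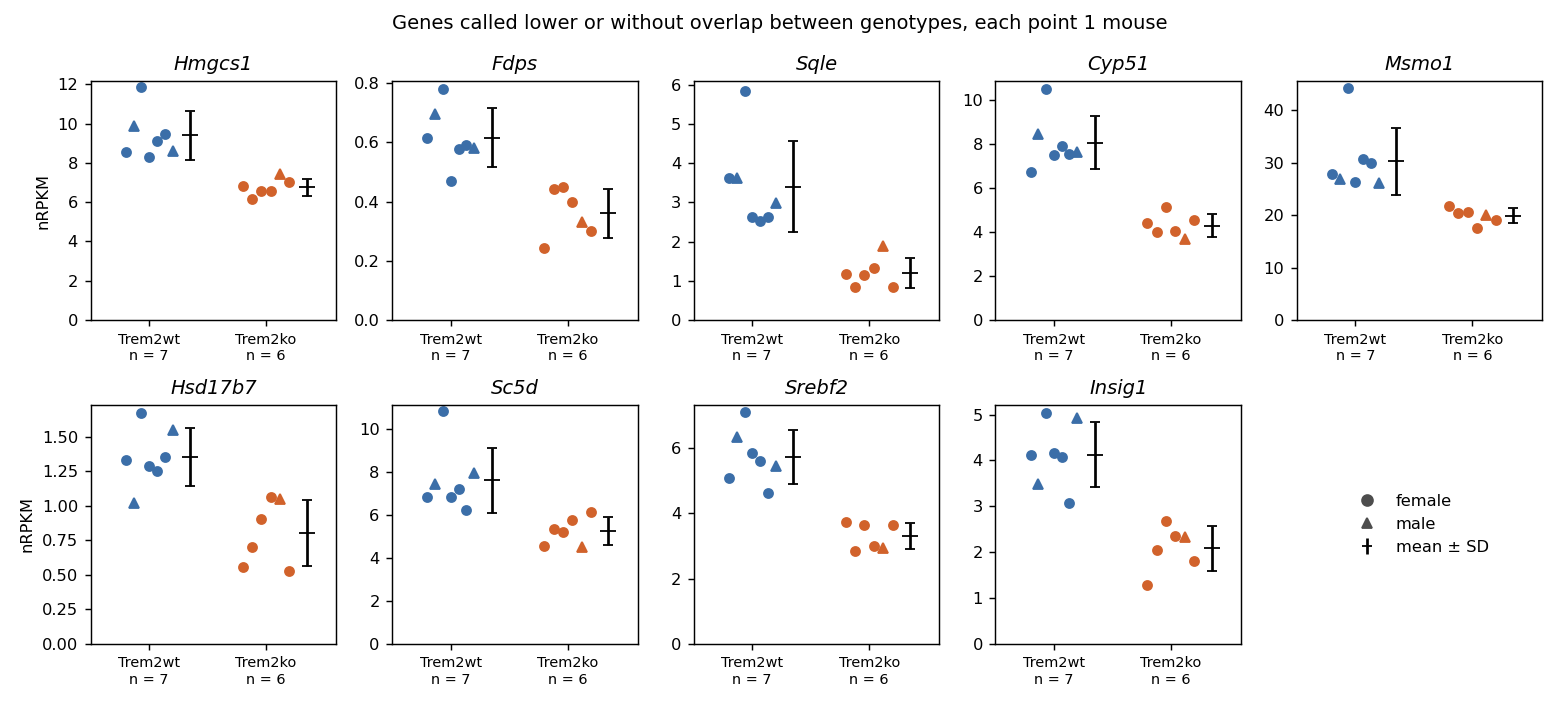
nRPKM (linear axis from 0) in each mouse for the 8 called genes and Fdps, whose genotypes also did not overlap, with blue PS2APP;Trem2wt and orange PS2APP;Trem2ko points, circles for females, triangles for males and bars for the mean ± SD (n = 7 and 6). The genotypes are separate in all panels but that of Hsd17b7, where 4 of 6 PS2APP;Trem2ko mice lie below every PS2APP;Trem2wt mouse, and PS2APP;Trem2wt replicate 3 is the highest blue point in each of the 9 panels.

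Among the genes that govern the pathway, the SREBP-2 gene and 1 of the 2 Insig genes fell, and 5 of 7 were not called. Srebf2 ranged from 4.64 to 7.12 nRPKM in PS2APP;Trem2wt mice (median 5.60) and from 2.86 to 3.73 nRPKM in PS2APP;Trem2ko mice (median 3.31). The groups did not overlap. The log2 fold change was -0.80 ± 0.10 (SE, edgeR adjusted p = 0.000467), which is 0.574 of the PS2APP;Trem2wt level, and it was -0.74 without PS2APP;Trem2wt replicate 3. Srebf2 lies on chromosome 15 from 82147181 to 82205379 and shares 0.396% of its 50-base words with other genes.

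Srebf1, by contrast in level, was the more abundant SREBP gene in these cells. It ranged from 11.9 to 21.7 nRPKM in PS2APP;Trem2wt mice and from 12.3 to 14.0 nRPKM in PS2APP;Trem2ko mice, with a log2 fold change of -0.22 ± 0.11 (SE, edgeR adjusted p = 0.369). All PS2APP;Trem2ko mice lay within the PS2APP;Trem2wt range, and without PS2APP;Trem2wt replicate 3, the mouse at 21.7 nRPKM, the log2 fold change was -0.12. The difference between the 2 SREBP genes was tested within mice, as the log2 ratio of Srebf2 to Srebf1 nRPKM. It belonged to a family of 5 gene pairs chosen after their values were seen. Srebf2 had then been seen to be called and Srebf1 not. The ratio therefore describes these mice, and its p-value adds no independent evidence. The ratio averaged -1.40 ± 0.22 (SD, n = 7) in PS2APP;Trem2wt mice and -1.99 ± 0.16 (SD, n = 6) in PS2APP;Trem2ko mice, a difference of -0.60 by a two-sided exact permutation test (p = 0.00117, adjusted p = 0.00583 over 5 pairs), the smallest p that the 1716 splits can give. It was lower in 6 of 6 PS2APP;Trem2ko mice than in every PS2APP;Trem2wt mouse. Without PS2APP;Trem2wt replicate 3 the difference was -0.63 (exact permutation test, p = 0.00216, the smallest possible with 6 mice in each group).

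Insig1, itself an SREBP target as well as a brake on SREBP, ranged from 3.06 to 5.03 nRPKM in PS2APP;Trem2wt mice (median 4.13) and from 1.27 to 2.69 nRPKM in PS2APP;Trem2ko mice (median 2.19). The groups were separate. The log2 fold change was -0.995 ± 0.17 (SE, edgeR adjusted p = 0.00410), which is 0.502 of the PS2APP;Trem2wt level, and it was -0.94 without PS2APP;Trem2wt replicate 3. Insig2, the paralog that is controlled by other signals in many tissues, was measured at 15.8, 18.9 and 21.8 nRPKM (lowest, median, highest) in PS2APP;Trem2wt mice and 17.1, 19.4 and 23.7 nRPKM in PS2APP;Trem2ko mice. These values overlapped, with a log2 fold change of 0.06 ± 0.09 (SE, edgeR adjusted p = 0.788). The log2 ratio of Insig1 to Insig2 differed by -1.07 between the genotypes (two-sided exact permutation test, p = 0.00233, adjusted p = 0.00583 over the 5 pairs), and 5 of 6 PS2APP;Trem2ko mice lay below every PS2APP;Trem2wt mouse. The difference was -1.04 without PS2APP;Trem2wt replicate 3 (exact permutation test, p = 0.00433). This pair too was chosen with Insig1 seen to be called and Insig2 not, so its p-values add no independent evidence.

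The same comparison within mice was made for 3 pairs of enzymes of shared or adjoining steps. Msmo1 against Nsdhl differed by -0.42 on the log2 ratio scale (two-sided exact permutation test, p = 0.0198, adjusted p = 0.0248), and Hsd17b7 against Nsdhl by -0.63 (exact permutation test, p = 0.0117, adjusted p = 0.0194). The 3 genes act in the same demethylation. Nsdhl had been seen not to pass the test when these pairs were chosen, so the ratios describe these mice and add no independent evidence. Without PS2APP;Trem2wt replicate 3, the differences were -0.35 and -0.60 (exact permutation test, adjusted p = 0.0460 and 0.0361). Lbr against Tm7sf2 differed by -0.15 (exact permutation test, p = 0.478), which is within the spread between mice.

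None of the genes that move and cut SREBP was called by edgeR, voom+limma or DESeq2. Scap, the escort protein, had a log2 fold change of -0.10 ± 0.10 (SE, edgeR adjusted p = 0.692), and -0.04 without PS2APP;Trem2wt replicate 3. Mbtps1, the Golgi protease of the first cut, and Mbtps2, the protease that then frees the transcription factor, had log2 fold changes of -0.15 (SE 0.08) and 0.04 (SE 0.10). The 95% confidence interval was -0.29 to 0.09 for Scap, -0.31 to 0.02 for Mbtps1 and -0.17 to 0.24 for Mbtps2. Of the 50-base words of Mbtps2, 28.9% also occur in another gene, 27.6% in Yy2, which lies within it on the same strand. Stard4, a cytosolic sterol carrier, was low, at 0.339 to 0.879 nRPKM in PS2APP;Trem2wt mice and 0.152 to 0.469 nRPKM in PS2APP;Trem2ko mice. 3 of 6 PS2APP;Trem2ko mice lay below every PS2APP;Trem2wt mouse, and the log2 fold change for Stard4 was -0.76 ± 0.29 (SE, edgeR adjusted p = 0.208).

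Single mice did not contribute to the pattern in the same way in the 2 genotypes. PS2APP;Trem2wt replicate 3 had the highest level of its genotype for all 8 called genes, with a median deviation of 0.37 on the log2 scale from the genotype mean. It also had the highest summed level in its genotype of microglial, oligodendrocyte and astrocyte markers, and its total of 79883820 counts was not the highest. In PS2APP;Trem2ko mice the highest value for the 8 genes was spread over 5 mice, none holding more than 2. Across alternatives, Hmgcs1, Sqle, Cyp51, Msmo1, Srebf2 and Insig1 stayed called in each of the 13 fits that left out 1 mouse and in all 11 other settings without a fold cutoff. In females alone, 7 of the 28 genes were lower, without Sc5d, and 9 had genotypes without overlap. With 1 male in the PS2APP;Trem2ko group, males could not be compared on their own. That male lay below both PS2APP;Trem2wt males for 7 of the 8 called genes, and for Hsd17b7 at 1.05 nRPKM it lay between them, at 1.02 and 1.55 nRPKM.

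**Figure D4:**
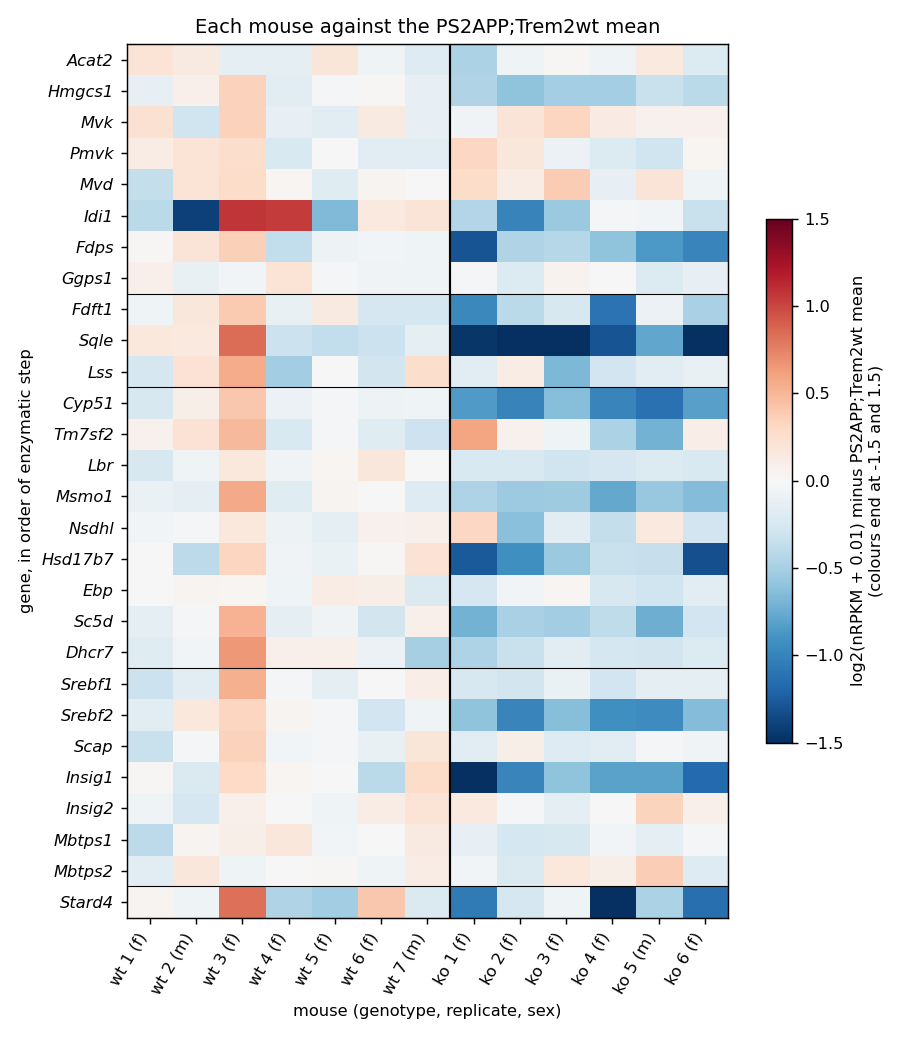
Level of each of the 28 genes (rows, by enzymatic step) in each of the 13 mice (columns, with sex), as log2(nRPKM + 0.01) minus the PS2APP;Trem2wt mean, blue for lower and red for higher, with colours ending at -1.5 and 1.5. The rows of Hmgcs1, Sqle, Cyp51, Msmo1, Sc5d, Srebf2 and Insig1 are blue in all 6 PS2APP;Trem2ko columns, and the column of PS2APP;Trem2wt replicate 3 is red in most rows.

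Oligodendrocytes and astrocytes make much cholesterol, so the markers of cells that could be carried along in the sort were summed in each mouse. The 9 oligodendrocyte markers summed to 56.4 to 74.1 nRPKM in PS2APP;Trem2wt mice and 51.4 to 66.5 nRPKM in PS2APP;Trem2ko mice. Mog, Cldn11 and Ugt8a, 3 of the 9, were listed at 0 in at least 1 mouse, and none of the 8 that could be tested was called. The 6 astrocyte markers summed to 63.2 to 82.6 nRPKM and 68.6 to 88.6 nRPKM, the higher median being that of PS2APP;Trem2ko mice, and 0 of 6 were called by edgeR, where 1 was higher before adjustment, and 1 was called higher by both voom+limma and DESeq2. The 8 microglial markers summed to 13510 to 16396 nRPKM in PS2APP;Trem2wt mice and to 13841 to 15682 nRPKM in PS2APP;Trem2ko mice, and 1 of the 8, the chemokine receptor Cx3cr1, was lower. Border macrophage markers summed to 9.45 to 29.5 nRPKM and 17.2 to 42.9 nRPKM, and those of monocytes and neutrophils to 6.37 to 124.7 nRPKM and 1.55 to 24.5 nRPKM, again with 0 genes called. Neuronal markers summed to 3.47 to 11.0 nRPKM and 3.73 to 11.0 nRPKM, and endothelial markers to 6.21 to 15.5 nRPKM and 7.25 to 11.1 nRPKM. The part of any of these cells in the sterol gene differences was not tested.

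**Figure D5:**
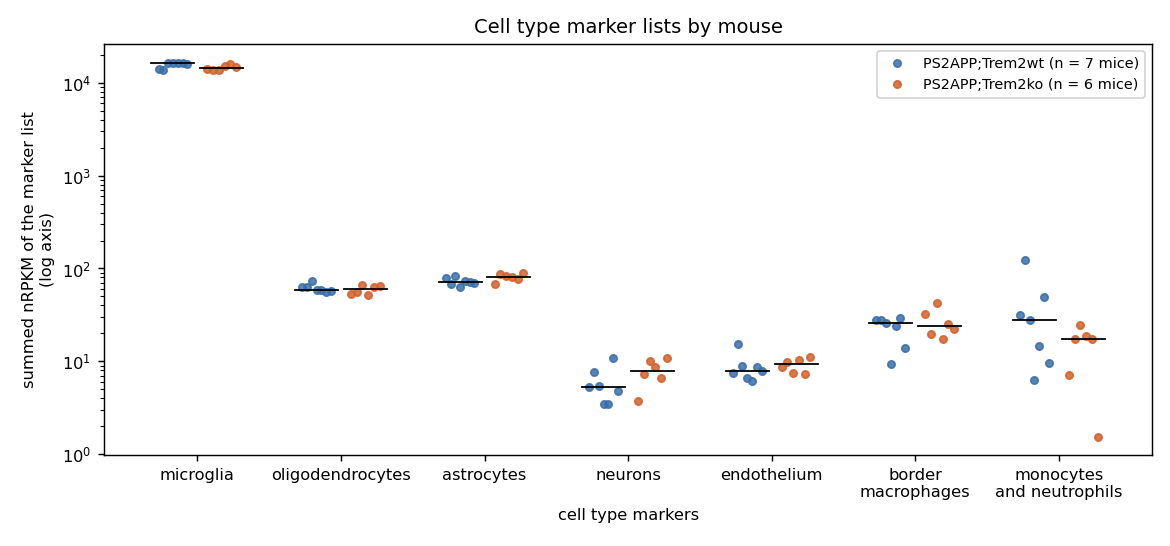
Summed nRPKM (log axis) of each cell type marker list in each mouse, blue for the 7 PS2APP;Trem2wt and orange for the 6 PS2APP;Trem2ko mice, with a line at each median. Microglial markers sum to 13510 nRPKM or more in every mouse, oligodendrocyte and astrocyte markers to no more than 88.6 nRPKM, and the genotypes overlap in every list.

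Beyond the 28 genes, 57 genes of neighbouring pathways were counted in 4 lists, and 56 of them could be tested. By edgeR at the same threshold 2 were lower and 1 was higher, against 1.53% and 0.503% of all genes tested, while DESeq2 called 6 lower and 2 higher. The median log2 fold change was -0.07. The lists too were chosen with earlier results of these data known, so their shares are descriptive. None of the 16 genes of the side branches, which serve dolichol, ubiquinone and protein prenylation or pass electrons to the sterol enzymes, was called by edgeR or voom+limma, and their median was -0.04. In edgeR 2 were higher and 0 lower before adjustment (p of 0.05 or less), and DESeq2 called 1 higher, Rabggta (adjusted p = 0.0398). The most positive log2 fold changes there were 0.27 for Rabggta and 0.24 for Rabggtb, the subunits of the Rab geranylgeranyl transferase. The most negative were -0.17 for Pggt1b, a subunit of the other geranylgeranyl transferase, and -0.15 for the electron donor Cyb5b.

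The fatty acid genes that SREBP-1 is known to drive had negative log2 fold changes in 10 of 11 cases, against 49.3% of all genes tested, with a median of -0.25. None was called by edgeR or voom+limma, 3 were lower at an unadjusted p of 0.05 or less in edgeR, and 3 were lower in DESeq2. Acaca, acetyl-CoA carboxylase, ranged from 0.505 to 2.09 nRPKM in PS2APP;Trem2wt mice and from 0.280 to 0.666 nRPKM in PS2APP;Trem2ko mice, and its log2 fold change was -1.06 ± 0.28 (SE, edgeR adjusted p = 0.0728). Me1, malic enzyme, had -0.69 (SE 0.33), and the single positive value was 0.03 for Scd1. Fasn, fatty acid synthase, and the desaturase Scd2, named after their values were seen, had log2 fold changes of -0.52 and -0.41 (edgeR adjusted p = 0.107 and 0.123). The 3 genes called by DESeq2 were Acaca, Fasn and Scd2, at adjusted p-values of 0.00531, 0.0239 and 0.0355.

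Of the 15 cofactors and regulators of SREBP, 1 was called lower, where 1.53% of all genes were. Nfya, the subunit of NF-Y that contacts the CCAAT box, ranged from 1.63 to 3.12 nRPKM in PS2APP;Trem2wt mice and from 1.03 to 1.76 nRPKM in PS2APP;Trem2ko mice. The groups overlapped, and 4 of 6 PS2APP;Trem2ko mice lay below every PS2APP;Trem2wt mouse. Its log2 fold change of -0.74 ± 0.17 (SE, edgeR adjusted p = 0.0319) lost its call in females alone (adjusted p = 0.116), with thinned counts (0.0559) and without any one of 8 mice, namely PS2APP;Trem2wt replicates 3, 5, 6 and 7 and PS2APP;Trem2ko replicates 1, 3, 5 and 6, with an adjusted p of up to 0.0733. Nfya lies beside the Trem2 locus on chromosome 17, so the effect of the deleted allele or its flanking C57BL/6N sequence on Nfya and an effect of losing Trem2 protein cannot be told apart. Rnf145, a ubiquitin ligase acting on Scap, had a log2 fold change of 0.26 and the deubiquitinase Usp20 had 0.12, and neither passed the test.

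Among the 15 genes of sterol uptake, efflux and oxysterols, 1 fell and 1 rose in edgeR, 14 being tested, where 1.53% of all genes fell and 0.503% rose. Ch25h makes an oxysterol that holds SREBP back through Insig. Its level ranged from 13.8 to 34.0 nRPKM in PS2APP;Trem2wt mice (median 21.2) and from 2.56 to 10.4 nRPKM in PS2APP;Trem2ko mice (median 6.51). The groups were separate, and the log2 fold change was -1.92 ± 0.30 (SE, edgeR adjusted p = 0.00212). Abcg1, an exporter of cholesterol to lipoproteins and a target of the liver X receptors, went the other way. It ranged from 21.3 to 25.3 nRPKM in PS2APP;Trem2wt mice (median 22.1) and from 26.7 to 37.0 nRPKM in PS2APP;Trem2ko mice (median 31.0), without overlap, a log2 fold change of 0.46 ± 0.08 (SE, edgeR adjusted p = 0.00715). Without PS2APP;Trem2wt replicate 3 the values were -1.81 for Ch25h and 0.45 for Abcg1. Nr1h3, which encodes a liver X receptor, had a log2 fold change of -0.51 with an SE of 0.32, and Cyp27a1, which makes another oxysterol, had 0.23 with an SE of 0.11, and neither passed the test.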

How the data were processed

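RNA from sorted brain myeloid cells of 13 mice was amplified with a SMART-Seq kit and sequenced as single-end reads of 50 bases. Per the methods and labels, adapters, low-quality and rRNA reads were removed and reads were aligned to GRCm38 with GSNAP (version not given in the sources used here). The authors deposited raw counts per gene and nRPKM, a size-factor-adjusted RPKM; whether counting used strand is not given in the sources used here. Gene names and coordinates were taken from GENCODE M21 on GRCm38. Groups came from the genotype labels.

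Counts were tested with edgeR 4.0.16 in R 4.3.3 (filterByExpr by genotype, 17086 genes; TMM; glmQLFit and glmQLFTest, no covariate), with Benjamini-Hochberg adjustment over all genes tested. The SE is the size of the log2 fold change over the square root of F. The common biological coefficient of variation was 0.299. The study used voom+limma, run here as an alternative (limma 3.58.1), as were DESeq2 1.42.0, RLE and upper-quartile scaling, no filter, a minimum of 10 counts in 6 mice, a term for sex, the females alone, log2(nRPKM + 0.1) and log2(nRPKM + 1), counts thinned to the smallest library, a 2-fold cutoff and leaving out each mouse. The tests across genes were first tested on simulated data. RPKM values were used as deposited for levels, marker sums and ratios within mice, the last tested over all 1716 splits in Python 3.11.15 with scipy 1.17.1.

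With 26120961 counts or more per mouse, 3 counts, taken as the limit of detection, are at most 0.115 CPM, which covers counting error only. Among 36 pairs of mice of 1 genotype the chi-square of counts per gene was at least 19.6, so no library was taken as deposited again. The methods say that generally 1 mouse of each genotype was taken through perfusion and sorting together, but the labels do not give these pairs, so they could not be used.

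The 28 genes and the lists were chosen with earlier results of these data known. All 28 are named. Values by mouse are given for those with an adjusted p of 0.05 or less, without overlap, or among the 3 largest log2 fold changes in each direction, and for list genes that were called. Of the other list genes, the 2 most positive and 2 most negative are named with their log2 fold change. 1 list gene that this rule names is not reported here. Gene pair ratios, the motif TCACNNCA and shares of 50-base words found in another gene on either strand were added after values were seen, as were the ratios without PS2APP;Trem2wt replicate 3.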

Additional observations from a re-analysis of the deposited data

Results flagged for a closer look

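Each genotype's levels of the 28 genes were searched for a mouse whose distance to its nearest neighbour was large against the range of its group (Dixon's test). Such a mouse was found in 6 of 56 groups, where chance alone gives about 1 in 20 if groups are independent. They are not independent here, because all 28 genes were measured in the same mice. PS2APP;Trem2wt replicate 3 was the highest of 7 mice in 5 of the 6. It had 5.85 nRPKM for Sqle, against 3.64 in the next mouse, 44.2 nRPKM for Msmo1, against 30.6, and 10.8 nRPKM for Sc5d, against 7.93. For Dhcr7 it had 15.6 nRPKM, against 10.5, and for Srebf1 21.7 nRPKM, against 16.0. In the remaining group, PS2APP;Trem2wt replicate 1 was the lowest mouse for Mbtps1, at 20.4 nRPKM, the next being at 26.1. No PS2APP;Trem2ko group held such a mouse.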

How the results depend on the processing

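The number of the 28 genes called lower was 8 in edgeR, 9 in voom+limma and 10 in DESeq2. It was between 7 and 9 in the other settings without a fold cutoff, and 1 in edgeR with a 2-fold cutoff. It was 6 to 8 when each mouse was left out, and 0 were called higher in any setting. Genotypes did not overlap in 8 genes by nRPKM, in 9 among females and in 8 to 9 when each mouse was left out. Of the list genes, 2 were lower and 1 was higher, against 6 and 2 in DESeq2, where the cause was not tested. With fewer mice (females alone) or fewer counts (thinned libraries) 1 was lower, and with each mouse left out 1 to 4, the highest without PS2APP;Trem2wt replicate 1 and 1 without PS2APP;Trem2wt replicates 3, 5 or 7 or PS2APP;Trem2ko replicates 1, 3 or 6. Of the uncalled genes, 3 changed sign. The log2 fold change of Pmvk was 0.0483 in females alone and -0.0787 to 0.0464 when each mouse was left out. That of Tm7sf2 was 0.0354 in females alone, 0.0712 with thinned counts and -0.211 to 0.0614 when each mouse was left out, and that of Mbtps2 was -0.0384 to 0.0851. Idi1, with 2 to 44 counts, gave no adjusted p in DESeq2 and failed the filter in females alone and in thinned counts. No paired analysis was possible because, although mice were generally processed in pairs of 1 per genotype, the labels do not say which mice were paired, and the replicate numbers used here follow accession order.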
